A study of Homo sapiens with 5 samples.

Results

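Tight junction genes were followed in cultures of MCF12A, a cell line established from non-malignant epithelium of the human breast: the claudin genes CLDN1, CLDN4 and CLDN7, the occludin and tricellulin genes OCLN and MARVELD2, the adhesion molecule gene F11R, and the scaffold genes TJP1, TJP3 and CGN. The 9 genes were chosen by name with earlier results of these data known, as were the gene lists used further below. Their counts beside those of all genes are therefore a description. Each gene was read from probe sets annotated with exactly 1 gene symbol, out of 17958 genes so measured in one table of arrays and 18417 in the other. By that rule 6 of the 9, CLDN1, CLDN4, CLDN7, MARVELD2, TJP1 and CGN, were measured in both tables, and TJP3 only in the second. The probe set for OCLN is also annotated to its pseudogene OCLNP1, so its signal cannot be assigned to either gene and is left out of all counts. F11R has no probe set listed in the annotation used, and no value is given for it.

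The groups were single Affymetrix Gene ST arrays of total RNA from MCF12A monolayers grown with horse serum, epidermal growth factor, hydrocortisone, insulin and cholera toxin, which all 5 cultures shared. The first table held 1 array of untreated cells, 1 of cells exposed for 4 weeks to 2.5% ethanol and 1 of cells exposed for 4 weeks to 1% acetaldehyde, to which cells first oxidise ethanol. The second table held 1 array of a clone picked from soft agar, in which only cells that need no attachment form colonies, and 1 of its control. The clone is labelled with 4 weeks of 2.5% ethanol, while the series' own design text puts its ethanol at 2.5 mM. Its control is labelled as unexposed and also carries a soft agar tag. The clone is a single clone, so any property of that clone cannot be told apart from its exposure. With 1 array per group there was no estimate of spread between cultures. No test was possible, no difference below has a replicate check, and precision is limited by the number of arrays.

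Tight junctions seal the space between epithelial cells at the border of their apical and lateral surfaces. Claudins span the membrane and form the strands that set which ions pass between cells. Occludin and tricellulin are further membrane proteins of the strands, tricellulin at the points where 3 cells meet. ZO-1 and ZO-3, encoded by TJP1 and TJP3, and cingulin, encoded by CGN, lie on the cytoplasmic side, where they tie the strands to actin. F11R encodes JAM-A, an immunoglobulin-like adhesion molecule of the same junction. In the breast these junctions close the milk-secreting epithelium during lactation.

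The DNA just upstream of these genes is shown first, because several of them differed together below and because transcriptional repressors of the SNAI and ZEB families are known to bind the hexamer CACCTG, or CAGGTG read on the other strand, in epithelial promoters. In the 250 bases before each start listed by RefSeq (GRCh38.p14), either strand of that hexamer occurred in 17.5% of 35116 windows of the same length over all genes. Counted by gene, 20.6% of 27305 genes held it in at least 1 window. The windows of CLDN1, MARVELD2, CLDN4 and CGN held none. One of the 2 windows of CLDN7 held 4, a number that 43 of all windows (0.122%) reached. TJP1 held 1 in 1 of its 4 windows, TJP3 held 1 in 1 of its 2, and both windows of OCLN held 1. These matches describe letters and do not show that a factor binds. The CLDN1 window, chr3:190322447-190322696 on the minus strand, is printed whole because CLDN1 had the lowest difference of the measured genes in ethanol and in the clone, though not in acetaldehyde. It has no match even to the wider motif CANNTG, found in 61.8% of all windows, so it carries no capitals. The other lines are stretches of 30 bases around the hexamers, in capitals. They come from CLDN7 at chr17:7262635-7262664, chr17:7262596-7262625 and chr17:7262481-7262510 and from TJP1 at chr15:29969120-29969149, all on the minus strand, and from TJP3 at chr19:3721707-3721736 on the plus strand.
CLDN1: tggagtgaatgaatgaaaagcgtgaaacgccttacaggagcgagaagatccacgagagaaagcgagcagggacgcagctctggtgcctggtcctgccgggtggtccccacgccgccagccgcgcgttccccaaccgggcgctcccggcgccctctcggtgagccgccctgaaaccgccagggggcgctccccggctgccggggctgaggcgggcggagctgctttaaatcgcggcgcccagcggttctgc
CLDN7, match 1: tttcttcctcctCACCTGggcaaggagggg
CLDN7, match 2: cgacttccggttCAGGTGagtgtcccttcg
CLDN7, matches 3 and 4: cctacatatactCAGGTGcgcccCACCTGt
TJP1: gcggccggcgcgCAGGTGgcccggcctcgc
TJP3: gagacctggaggaggaagaggggCAGGTGc

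Values below are the deposited intensities, and differences are log2 of an exposed or selected array minus log2 of its own control within one table. A gene was counted only where the brighter of both arrays reached an intensity floor, the median of its table, at 70.2 in the first and 92.0 in the second. The floor is not a measured background. Where the dimmer array lay under it, the fold is a lower bound ("at least") taken against the floor. Log2 differences, and the counts made from them, come from the deposited values. The floor was passed by 5 of the 6 genes measured in the first table and by 6 of the 7 in the second. CGN did not pass in either. Equal values, to within 1e-06 on the log2 scale, were frequent in the first table, for 43.9% of probe sets in ethanol and control and 48.2% in acetaldehyde and control, against 1.02% in the second. Levels were not set across tables, because the arrays are of different designs and were treated as normalised separately.

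**Figure D1:**
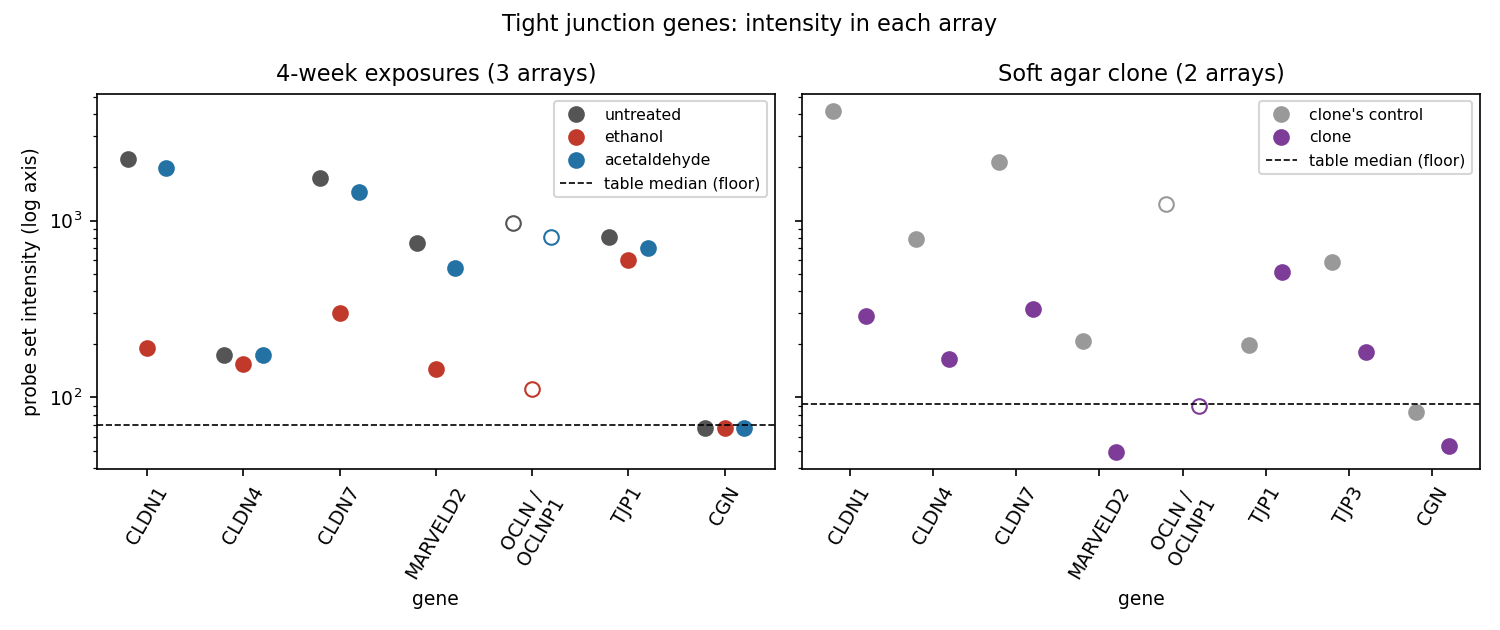
Intensity of each tight junction gene (x axis) in each single array on a log axis, in the table of 4-week exposures (left) and of the clone and its control (right). Open circles are the probe set shared by OCLN and OCLNP1, and the dashed line is the table median. In the left panel the ethanol array lies far below the other 2 for CLDN1, CLDN7, MARVELD2 and the shared probe set, and in the right panel TJP1 is the single gene higher in the clone.

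After 4 weeks in ethanol, the transcripts of CLDN1, CLDN7 and MARVELD2 were low, whereas CLDN4 lay near control and TJP1 was 1.34-fold lower. CLDN1 was 11.6-fold lower, CLDN7 5.73-fold and MARVELD2 5.13-fold. In all, 3 of the 5 genes past the floor were lower by 2-fold or more, against 2.44% of 11264 genes, and 0 were higher by as much, against 2.63%. Their median log2 difference was -2.36, beside 0 over all genes. In bulk cultures, fewer epithelial cells and less RNA per cell cannot be told apart.

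CLDN1, which encodes a claudin of barrier-forming strands, had an intensity of 2217 in untreated cells, 192 in ethanol and 1982 in acetaldehyde. The ethanol array stood alone at the low end, with 8.64% of the control level and a log2 difference of -3.53. Only 14 of 11264 genes had a more negative difference. CLDN7, a claudin also found along the lateral membrane, had intensities of 1729, 302 and 1441 in the same order. Its log2 difference in ethanol was -2.52, the 47th lowest of all genes past the floor. MARVELD2 had intensities of 746, 145 and 537, and its difference of -2.36 was the 58th lowest. Its probe set is listed under 2 identifiers with identical values, so it counts once.

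CLDN4 encodes a claudin that limits the passage of sodium in several epithelia. It had an intensity of 175 in untreated and in acetaldehyde cells, at equal values, and 155 in ethanol. Its log2 difference in ethanol was -0.18, and 15.5% of genes had a lower one. TJP1, the ZO-1 scaffold gene, had intensities of 807, 601 and 702 in untreated, ethanol and acetaldehyde cells. Its difference in ethanol was -0.43, or 74.4% of the control level, and 7.32% of genes lay lower. CGN had an intensity of 67.0 in each of the 3 arrays, under the floor. The probe set shared by OCLN and OCLNP1 had 970 in untreated cells, 112 in ethanol and 809 in acetaldehyde, a log2 difference of -3.12 in ethanol. That difference was between those of CLDN1 and CLDN7.

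In acetaldehyde none of these genes reached 2-fold, and each stood at or below its control. Of the 5 genes past the floor 0 were at least 2-fold lower, against 0.0536% of 11194 genes, and 0 higher, against 1.03%. Their median log2 difference was -0.20, beside 0 over all genes. MARVELD2 had the lowest value, at 72.0% of control with a log2 difference of -0.47, the 80th lowest of all genes. CLDN7, TJP1 and CLDN1 had differences of -0.26, -0.20 and -0.16, with 3.22%, 5.25% and 7.41% of genes lower. CLDN4 equalled its control. The probe set shared by OCLN and OCLNP1 had a difference of -0.26. Both exposures share the untreated array, and their doses differ in the labels, so these values are set side by side and the compounds were not compared.

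In the soft agar clone, 5 of these genes were low and TJP1 was high. CLDN1 was 14.5-fold lower than in the clone's control, CLDN7 6.81-fold, CLDN4 4.79-fold and TJP3 3.23-fold, and MARVELD2 was at least 2.26-fold lower. TJP1 was 2.60-fold higher. Of the 6 genes past the floor 5 were at least 2-fold lower, against 5.83% of 12262 genes, and 1 at least 2-fold higher, against 14.7%. Their median log2 difference was -2.17, beside -0.02 over all genes.

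CLDN1 had intensities of 4181 in the control and 288 in the clone, a log2 difference of -3.86 that was the 54th lowest. CLDN7 had 2150 and 316, with a difference of -2.77, the 114th lowest. CLDN4 had 791 and 165, with a difference of -2.26 and 1.29% of genes lower. Among the claudins, all 3 were thus below control in the clone, whereas in ethanol CLDN4 was close to it. CLDN4 was dim in untreated cells, at 175 against a floor of 70.2, which limits the fall that could be measured there. Whether the clone and the ethanol culture differ in CLDN4 was not tested.

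MARVELD2 had 207 in the clone's control and 49.4 in the clone, under the floor, with a log2 difference of -2.07 as deposited. TJP3, the ZO-3 scaffold gene, had 585 and 181, a difference of -1.69 with 2.23% of genes lower. The other ZO gene measured went the other way. TJP1 had 197 in the control and 513 in the clone, a difference of 1.38, and 1049 of 12262 genes had a higher one. CGN had 83.1 and 53.4, both under the floor, so no fold is given. The probe set shared by OCLN and OCLNP1 had 1235 and 89.8, under the floor in the clone, which is at least 13.4-fold lower.

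**Figure D2:**
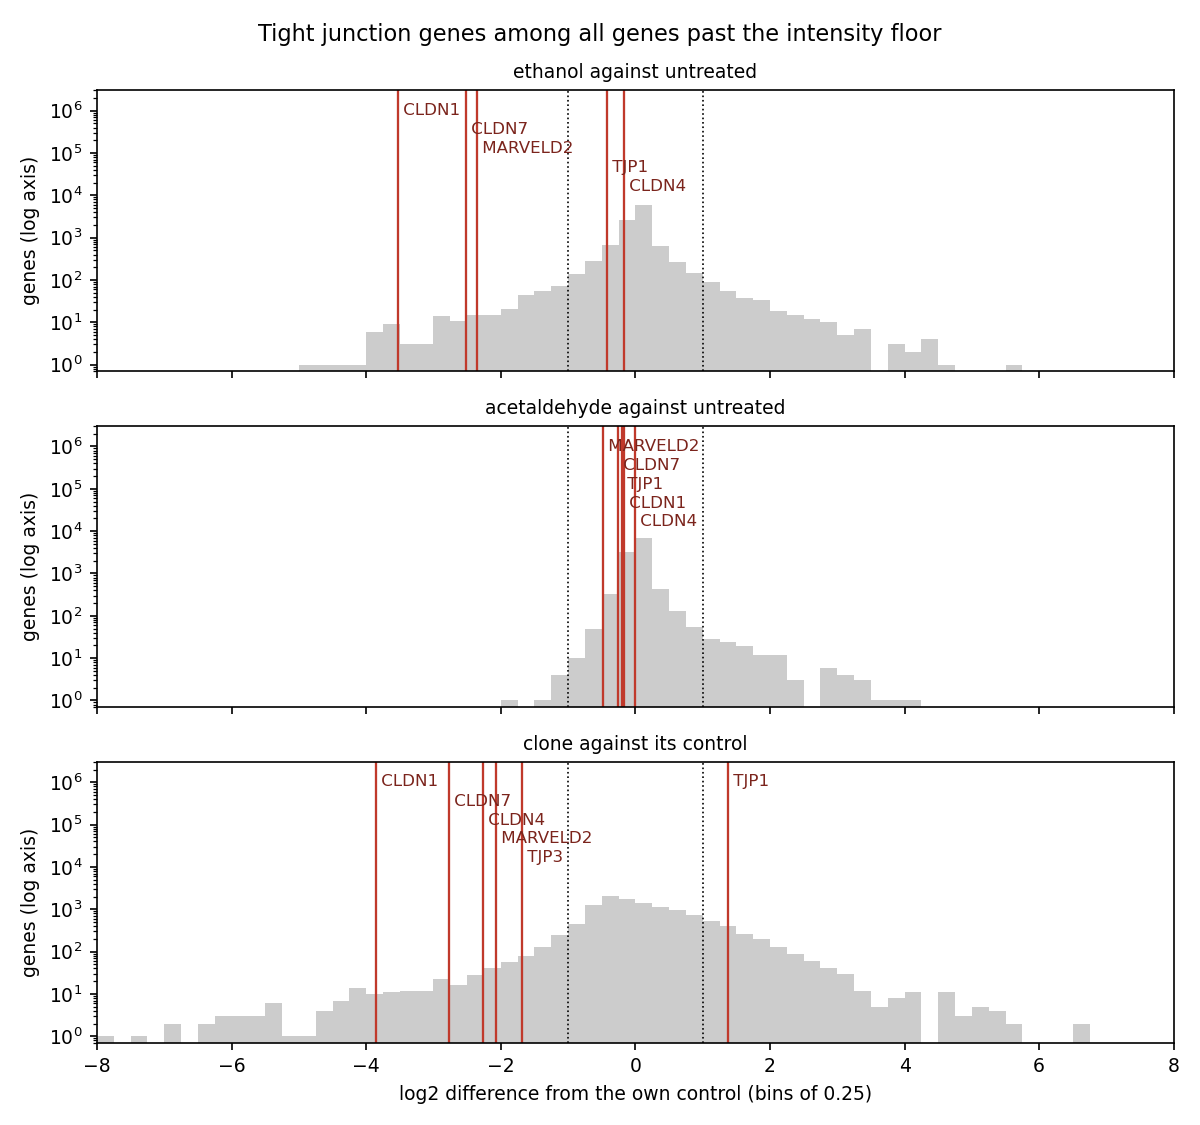
Number of genes past the intensity floor (log axis) by log2 difference from the own control, in bins of 0.25, for each of the 3 comparisons. Red lines are the tight junction genes past the floor and dotted lines mark 2-fold; CLDN1 lies at -3.53 in ethanol, -0.16 in acetaldehyde and -3.86 in the clone, and TJP1 at 1.38 in the clone.

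Ethanol and clone comparisons share no array, and their values can be read together. CLDN1, CLDN7 and MARVELD2 were at least 2-fold lower in both. Over all genes past the floor, 2.44% were lower by as much in ethanol and 5.83% in the clone. The share of all genes lower in both was not counted, so the overlap has no background beside it. TJP1 was below control in ethanol, by less than 2-fold, and above control in the clone. Of the 10445 genes past the floor in all 3 comparisons, 1641 were at least 2-fold higher in the clone. Of those 1641, 377 (23.0%) were below control in ethanol, against 35.1% of all 10445, and 38 (2.32%) at or below the difference of TJP1, against 7.23% of all.

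The genes whose pattern lay nearest were found by the mean absolute distance between their 3 log2 differences from control and those of the tight junction genes, among 10440 other genes. These are 3 differences from 5 arrays. Nearest to the median of the 5 genes measured in both tables and past the floor was LAD1, which encodes ladinin, at a mean distance of 0.09, with differences of -2.36 in ethanol, -0.18 in acetaldehyde and -2.03 in the clone. CAMK2N1, NIPAL4, ADGRG1 and IL1A followed at 0.22 to 0.26. Nearest to CLDN1 was ZNF750, which encodes a transcription factor of epidermal differentiation, at 0.06, with -3.50, -0.10 and -3.95. SERPINB13, ST6GALNAC2, CD24 and SPRR1B followed at 0.16 to 0.32. Nearest to TJP1 were INTS9, C10orf12, C10orf88, PARP14 and SIKE1, at 0.04 to 0.06, and INTS9, which encodes an Integrator subunit, had -0.44, -0.16 and 1.45.

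The rest of the tight junction machinery was described from lists of other claudins, other junction membrane proteins and other cytoplasmic scaffolds. Over these 3 lists, 3 of 24 genes past the floor were lower by 2-fold in ethanol, 0 of 24 in acetaldehyde and 6 of 27 in the clone, and 0, 0 and 2 were higher. Over all genes past the floor the shares lower were 2.44%, 0.0536% and 5.83% and the shares higher 2.63%, 1.03% and 14.7%, in the same order, and the list counts below stand beside these. With values under the floor raised to it, an alternative added after the data were seen, 4 of the 27 were lower in the clone. Of 8 other claudins past the floor, none reached 2-fold in ethanol or acetaldehyde, and in ethanol they ranged from -0.04 to 0.02. CLDN12, for example, had intensities of 822, 813 and 822 in untreated, ethanol and acetaldehyde cells. In the clone 1 of 9 was counted as lower by 2-fold, CLDN8, at 101 in the control and 25.1 in the clone. It lies under the floor in the clone, so the measurable difference is at least 1.10-fold and the count rests on a dim value. The other 8 were each below control by less than 2-fold, and the median was -0.37.

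Among 7 other membrane proteins past the floor, CXADR and LSR were the 2 that lay lower by 2-fold in ethanol. CXADR encodes an adhesion receptor related to the JAM family, and had 903 in untreated cells and 63.2, under the floor, in ethanol, at least 12.9-fold lower. LSR encodes angulin-1, which recruits tricellulin to tricellular contacts, and had 514 and 155, 3.32-fold lower. In the clone 3 of 8 were lower, CXADR by 5.30-fold, LSR by 3.12-fold and MARVELD3, a relative of occludin and tricellulin, by at least 1.96-fold, with its clone value under the floor. LSR thus had low values in the same arrays as MARVELD2.

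Cytoplasmic scaffolds held genes on both sides of control. In ethanol 1 of 9 was at least 2-fold lower, PATJ, a multi-PDZ protein of the Crumbs complex, at 419 in control and 147 in ethanol. In the clone 2 of 10 were lower, PATJ by 2.55-fold and the angiomotin-like gene AMOTL1 by 2.01-fold, and 2 were higher, where 5.83% and 14.7% of all genes were. The higher genes were MPDZ, which encodes the PATJ relative MUPP1, at 470 in the clone against 54.0 in its control, at least 5.11-fold, and AMOTL2 by 2.46-fold. The median of the list was 0.01 in the clone and -0.09 in ethanol.

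None of 14 polarity genes past the floor reached 2-fold in ethanol, where the median was -0.39, or in acetaldehyde, where it was -0.08. In the clone the median was -0.45 and 2 of 14 were lower, VANGL2, a planar polarity gene, by 2.93-fold and LLGL2, a basolateral polarity gene, by 2.14-fold. Of 12 genes of junction signalling and traffic, none reached 2-fold in ethanol or acetaldehyde. In the clone 2 of 12 were higher, a share near the 14.7% of all genes, the actomyosin kinase gene ROCK2 by 6.82-fold and ARHGAP17, a GTPase-activating protein gene, by 2.50-fold.

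**Figure D3:**
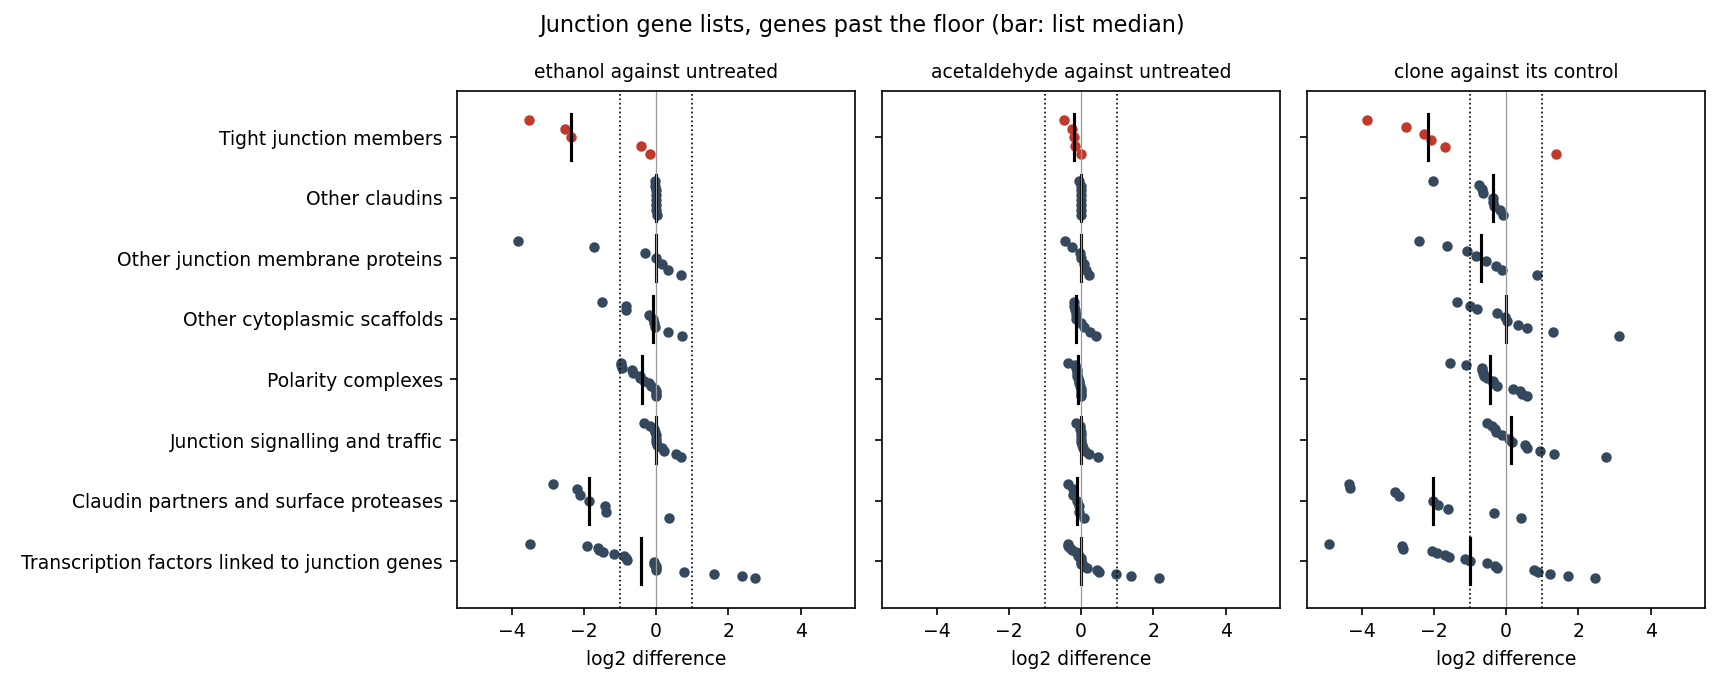
Log2 difference from the own control (x axis) of each gene past the floor, by list, in ethanol (left), acetaldehyde (middle) and the clone (right); black bars are list medians and dotted lines mark 2-fold. The tight junction genes and the claudin partners have low medians in ethanol, -2.36 and -1.87. That of the other claudins, most of them dim in untreated cells, is 0.

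Among the other junction lists, claudin partners and surface proteases had the largest share of low genes, both in ethanol and in the clone. EpCAM, encoded by EPCAM, binds and stabilises CLDN7 protein, and the serine protease genes ST14 and PRSS8 and their inhibitors SPINT1 and SPINT2 act at the epithelial surface. In ethanol 6 of 7 lay below control by 2-fold, and the list median was -1.87. EPCAM had 613 in untreated cells and 85.3 in ethanol, 7.19-fold lower, SPINT1 was 4.35-fold lower, PRSS8 at least 3.82-fold and SPINT2 3.65-fold. In acetaldehyde 0 of 7 reached 2-fold. In the clone 7 of 9 were lower, among them TMPRSS4 by at least 1.29-fold with a clone value under the floor, and the median was -2.01. PRSS8 and SPINT1 were 20.4-fold and 19.8-fold lower, SPINT2 8.45-fold and EPCAM at least 4.10-fold.

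**Figure D4:**
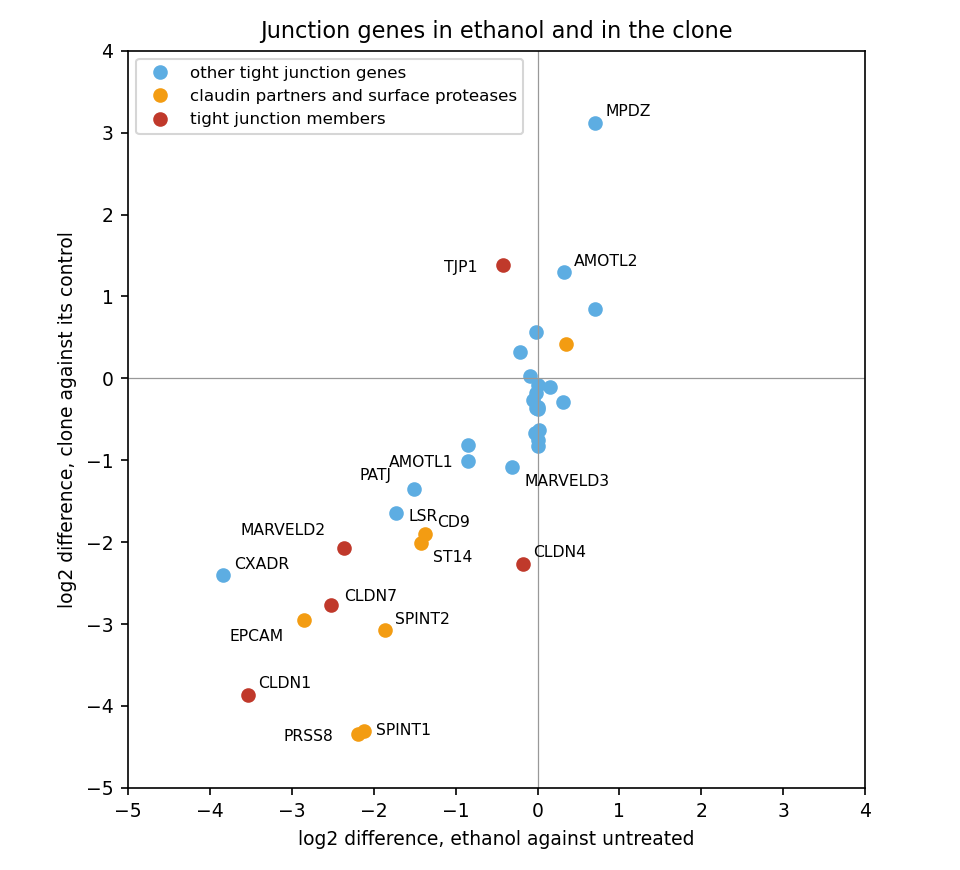
Log2 difference in ethanol (x axis) and in the clone (y axis), each from its own control, for tight junction genes (red), other tight junction genes (blue) and claudin partners and surface proteases (orange) past the floor in both; genes at 2-fold or more in either are named. CLDN4 lies near 0 in ethanol and at -2.26 in the clone, and TJP1 is the one red point above 0 on the y axis.

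Transcription factors linked to junction genes included more low than high genes in ethanol and in the clone. In ethanol 6 of 18 were lower by 2-fold and 3 higher, in acetaldehyde 0 and 2, and in the clone 9 and 3 of 17. The 3 higher in the clone are a share near the 14.7% of all genes, and GRHL1, counted among the 9, was lower by at least 1.54-fold, its clone value being under the floor. ESRP1, a splicing factor of epithelial cells kept in this list, had 2212 in untreated cells and 197 in ethanol, 11.2-fold lower. The activator genes TFAP2A, GRHL3 and KLF5 were 3.75, 3.03 and 2.75-fold lower in ethanol. In the clone TFAP2A was at least 16.4-fold lower, KLF5 7.25-fold and TFAP2C at least 5.37-fold. TFAP2C equalled its control in ethanol. The repressor genes ZEB1 and ZEB2 were 3.03-fold and at least 4.52-fold higher in ethanol and at least 2.49-fold and at least 4.30-fold higher in the clone. TWIST1 was 6.69-fold higher in ethanol, 4.45-fold in acetaldehyde and 2.35-fold in the clone. SNAI1 and SNAI2 had log2 differences of 0.77 and -0.05 in ethanol and -0.30 and 0.77 in the clone. In acetaldehyde ZEB2 was at least 2.28-fold and ZEB1 1.94-fold higher. Whether any of these factors acts on the junction genes was not tested.

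Markers of cell identity are set beside these values, and their part in them was not tested. All 9 measured breast epithelial genes were past the floor in both controls, in ethanol and in acetaldehyde, and 7 of 9 in the clone. In ethanol 6 of the 9 lay below control by 2-fold and 1 above, in acetaldehyde 0, and in the clone 7 below. Their summed intensity was 18444 in untreated cells, 10257 in ethanol and 18601 in acetaldehyde, and 35410 and 11085 in the clone's control and the clone. The basal keratin gene KRT5 had 6056 in untreated cells and 3629 in ethanol, 1.67-fold lower, and 12956 and 4159 in the clone's control and the clone, 3.11-fold lower. The cadherin genes CDH1 and CDH3 were 9.49-fold and 7.24-fold lower in ethanol. In the clone CDH3 was at least 30.1-fold lower, and CDH1 had 920 in the clone's control and 43.6 in the clone, a value below the floor. KRT14 and SFN were 5.79-fold and 3.03-fold lower in ethanol and 16.2-fold and 16.5-fold lower in the clone, and the simple keratin gene KRT8 was 2.08-fold higher in ethanol. In the clone KRT8 had 3921 against 3765 in its control, and KRT18, also a simple keratin gene, had 1589 against 1380. KRT18 was near control in ethanol, at 1004 against 986. Summed over 9 fibroblast markers the intensity was 544, 652 and 632 in the first table and 920 and 2025 in the second, with 4 of 6 past the floor at least 2-fold higher in the clone. COL3A1 was 4.19-fold higher and COL1A1 2.21-fold. FAP and DCN had control values under the floor, so that at least 3.12-fold and at least 1.81-fold were measurable. Of the adipocyte markers past the floor, 2 of 4 were at least 2-fold higher in ethanol, 1 of 4 in acetaldehyde and 1 of 5 in the clone. The shares over all genes were 2.63%, 1.03% and 14.7%. ADIPOQ and LEP were under the floor in every array, and LIPE equalled its control in ethanol. PPARG was 2.68-fold higher in ethanol, from 75.5 in untreated cells, close to the floor, and 1.25-fold higher in the clone. Of 6 adipocyte markers in the first table the sum was 389 in untreated cells, 2667 in ethanol, of which FABP4 made up 2163, and 549 in acetaldehyde. Of 7 in the second table the sum was 750 in the clone's control and 1684 in the clone, of which FABP4 made up 962. Over 8 endothelial markers it was 366, 377 and 366, and 770 and 812, with PECAM1 and CDH5 under the floor in every array and KDR at 69.3 in the clone's control, under the floor, and 275 in the clone, at least 2.99-fold higher. Over 7 immune markers it was 987, 1749 and 1319, and 1433 and 1345, with PTPRC under the floor in every array. CD68 made up 721, 1484 and 1055 of the sums in the first table and was 2.06-fold higher in ethanol. CD14, the other immune marker past the floor there, equalled its control in both exposures.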

How the data were processed

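Each of the 5 groups had 1 array. The authors deposited linear intensity values, made with RMA per the submitters' processing notes. The sources used here do not give its version or the genome build. RMA subtracts a background, brings arrays to one distribution and condenses each probe set by median polish, which can compress differences of dim genes. The arrays came in 2 tables of 33297 probe sets each, on different array designs. The labels' protocols tie array design to length of exposure, which for the clone's arrays was not resolved. Array medians were 70.0, 70.2 and 70.6 in the first and 94.0 and 89.9 in the second. As deposited, the arrays of the second table thus did not share one distribution. How the frequent equal values in the first table arose was not tested.

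Log2 was taken first. Of the probe sets, 19181 and 19460 had 1 symbol, 2055 and 1754 several and 12061 and 12083 none in the platform annotation. A gene with several probe sets was taken from the one with the highest mean log2 value. Genes at or past 2-fold and past the floor were counted, with no test. Named were the 9 genes, up to 4 genes at 2-fold or more per list and comparison, by size, and the 5 nearest in pattern. GRHL3 and ZEB1 were named beyond the 4 largest of their list. CLDN12, KRT5, KRT8, KRT18, TMPRSS4, GRHL1, SNAI1, SNAI2, PECAM1, CDH5, PTPRC, ADIPOQ, LEP, LIPE and CD14 were named after their values were seen. Members and lists (12 beside the 9 genes) were chosen with earlier results of these data known. Counting was tested on simulated data, with changes larger than the threshold placed only in genes far above the floor. That checks the counting code and says nothing of dim genes. Promoter windows came from RefSeq, GRCh38.p14; 8 of the 9 genes matched. Alternatives covered the floor, the fold, centring, lowess, quantile normalisation, the mean of probe sets and shared probe sets. Python 3.11.15, numpy 2.4.6, pandas 2.3.3 and statsmodels 0.14.6 were used.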

Additional observations from a re-analysis of the deposited data

Results flagged for a closer look

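TJP1 went in opposite directions against its own control in the 2 comparisons with ethanol in their labels. It had a log2 difference of -0.43 in the ethanol culture and 1.38 in the clone, 1 array against 1 each. The difference between them was not tested, and the clone differs from the ethanol culture in selection and array design as well.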

How the results depend on the processing

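Of 93 counts and medians recomputed under alternatives, 90 stayed within 1.5-fold of the reported value. With no floor, and with a floor at the 25th percentile of the table, CGN entered and the median log2 difference in ethanol was -1.39 in both. At a 3-fold threshold the number of genes higher in the clone was 0. Of 171 values of single genes, 169 moved by at most 1.5-fold and 0 reversed. Many of these could not move. Dropping the floor or changing its level leaves a single gene's difference as it is. The mean of probe sets does so too, since each gene had 1 distinct set of values. Centring subtracted 0 in the first table. The count is thus no measure of robustness. With values under the floor raised to it, MARVELD2 in the clone had a log2 difference of -1.17 and CGN 0. TJP1 in the clone ranged from 1.27 to 1.54 over 9 alternatives, and CLDN1 in ethanol from -3.53 to -3.52. Centring subtracted the clone's median over all probe sets, -0.17, which raised every difference in the clone, and changed no count of these genes. No paired analysis was possible because each group has 1 array. Differences of genes near the floor, such as CGN, are not measurable here, and with single arrays no alternative stands in for a replicate.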
